A study of Homo sapiens with 6 samples.

Results

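Prostaglandin E2 is made from arachidonic acid in a short chain of enzymes. Cytosolic phospholipase A2 releases arachidonic acid from membrane lipids, the cyclooxygenases convert it to prostaglandin H2, and the prostaglandin E synthases convert that to prostaglandin E2, which acts through the EP receptors and is inactivated by a dehydrogenase. In many cell types tumour necrosis factor α (TNF-α), an inflammatory cytokine that signals through NF-κB, is known to induce the cyclooxygenase PTGS2 and the synthase PTGES, while annexin A1 is known to restrain phospholipase A2.

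To examine this pathway in glioblastoma cells under TNF-α, the 10 genes PLA2G4A, PTGS1, PTGS2, PTGES, PTGES2, PTGES3, HPGD, PTGER2, PTGER4 and ANXA1 were taken by gene symbol from a table of 58735 genes, and each symbol was found there. The measurements came from bulk messenger RNA sequencing of U251, an established human glioblastoma cell line. The 3 cultures of the NC group had received sterile deionized water, and the 3 cultures of the TNF-α group had received recombinant human TNF-α at 10 ng/mL, each for 24 h. The labels name no genetic change and no difference between NC and TNF-α other than the agent, and a single cell line at 1 dose and 1 time stood for glioblastoma.

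TNF-α replicates 2 and 3 stood apart from the other 4 libraries. Reads in genes ranged from 31992167 to 37897044 per library with no separation by group. FPKM, the deposited level of a gene, is scaled to gene length and to a library size. That size, recovered from the values, was 3.21e+07 to 3.61e+07 in NC and TNF-α replicate 1. In TNF-α replicates 2 and 3 it was 2.59e+07 and 2.43e+07, for 37414474 and 31992167 reads in genes. The smaller size raises every FPKM value of those 2 libraries. The sum of FPKM over genes was 256373 to 266716 in the NC libraries and TNF-α replicate 1, but 463340 and 408175 in TNF-α replicates 2 and 3. A trend over GC content and length took up 35.2% and 34.0% of the spread of log2 ratios to the NC mean in those 2 libraries. The same trend took up 1.33% in TNF-α replicate 1, and in NC it took up between 3.31% and 16.8%. Values with and without these libraries are therefore given for the members. Of the U251 markers, VIM, NES, SOX2, CD44 and GFAP were expressed, and S100B had 0 reads in 4 of 6 libraries. None of 9 macrophage and microglia markers reached the level needed for testing, and their summed FPKM was 0.869 to 1.23 in NC and 0.654 to 1.75 in TNF-α, with 2 of the 9 at 0 reads in every library. In bulk RNA, fewer cells of a type and less RNA per cell cannot be told apart.

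PTGS2 and PTGES are the inducible enzymes of the chain, so their promoter sequences are shown, each running from 250 bases before to 50 bases after the transcription start (RefSeq, GRCh38.p14). For PTGS2, on the minus strand at chr1:186680374-186680673, capitals mark matches on either strand to an NF-κB-like pattern, GGGNNNNNCC. They also mark the core of a cAMP response element, spelled TGACG. A further pattern shown is C/EBP-like, TTNNGNAA, and the last is the TATA box, spelled TATAAA. For PTGES, on the minus strand at chr9:129752993-129753292, capitals mark GGGNNNNNCC and the GC box GGGCGG.
PTGS2: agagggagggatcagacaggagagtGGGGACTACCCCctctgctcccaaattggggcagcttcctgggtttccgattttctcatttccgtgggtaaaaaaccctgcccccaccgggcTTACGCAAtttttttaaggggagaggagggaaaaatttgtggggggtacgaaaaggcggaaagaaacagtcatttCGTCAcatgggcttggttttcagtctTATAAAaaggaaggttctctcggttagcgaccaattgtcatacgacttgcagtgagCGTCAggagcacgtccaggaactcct
PTGES: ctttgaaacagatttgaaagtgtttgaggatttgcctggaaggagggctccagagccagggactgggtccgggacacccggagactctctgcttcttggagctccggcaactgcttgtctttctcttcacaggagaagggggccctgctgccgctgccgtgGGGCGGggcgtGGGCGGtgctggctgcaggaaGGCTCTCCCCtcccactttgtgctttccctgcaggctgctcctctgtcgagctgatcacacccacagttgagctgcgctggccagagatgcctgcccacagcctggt

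In the PTGS2 window the NF-κB-like pattern gave 4 overlapping matches over the run from -225 to -214, counted with 0 at the start site. The C/EBP-like pattern lay at -133, the TATA box at -32, and the cAMP response element core at -58 and at 24. The PTGES window held 1 NF-κB-like match and 2 GC boxes, and no TATA box. Each pattern is common among promoters. Of 35116 RefSeq windows of this length, 58.7% held GGGNNNNNCC, 24.6% TGACG, 36.8% TTNNGNAA, 11.5% TATAAA and 45% GGGCGG, so the matches describe the letters only and single no member out. Among the other members, ANXA1 had a TATA box at -31 and PTGS1 a match on the opposite strand at -208. The first window of PTGES2 held 4 GC boxes in 72.3% GC, against 37.7% GC for ANXA1 and 39.7% for PLA2G4A. In the first window of each gene, NF-κB-like matches numbered 5 for PTGES2, PTGES3 and PTGER2 and 4 for HPGD and PTGER4. They numbered 3 for PTGS1 and 0 for ANXA1 and PLA2G4A.

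The PTGS2 messenger is also known for AU-rich elements, which mark short-lived messengers. Its coding part ended at base 1952 of a 4514-base transcript in GENCODE 29, and the transcript held 24 ATTTA pentamers. That was more than in 97.5% of 19684 genes with a coding transcript, for which the median was 3. The most crowded stretch of 30 bases is shown with its pentamers in capitals.
PTGS2, bases 1968 to 1997: ATTTATTTATTTAtatgaaccatgtctatt
PLA2G4A held 10 pentamers, PTGER4 9 and PTGES3 8, while PTGES held 1 and PTGES2 held 0. These counts cover whole transcripts of unlike length. Per kilobase PTGS2 held 5.32, PTGES3 3.85, PLA2G4A 3.48 and PTGER4 2.34, beside a median of 0.937 over all genes.

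In NC cells the members spanned a wide range of levels in FPKM, a scale that allows for gene length. ANXA1 was highest at 131 ± 1.87 (mean ± SD, n = 3), followed by PTGES3 at 105 ± 4.96 and PTGES2 at 22.7 ± 2.41. PTGER4 at 2.13 ± 0.398 and PLA2G4A at 1.97 ± 0.205 did not differ beyond their spread. Below them lay PTGS2 at 0.673 ± 0.0608 and PTGS1 at 0.148 ± 0.0173, and then PTGES at 0.0545 ± 0.0685 and HPGD at 0.0336 ± 0.0113, which overlapped each other. PTGER2 had 0 reads in all 6 libraries. Genes were tested where 3 or more of the 6 libraries reached 1 FPKM, and 5 of the 10 members did so, namely PLA2G4A, PTGES2, PTGES3, PTGER4 and ANXA1.

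**Figure D1:**
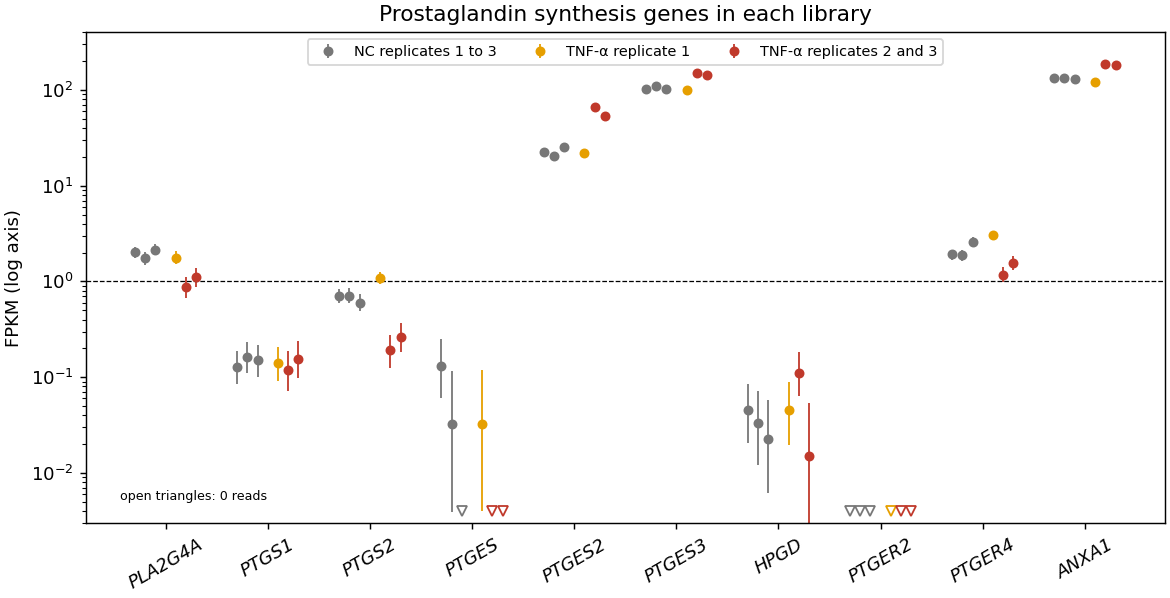
FPKM (log axis) of the 10 members in each of the 6 libraries, with exact 95% Poisson intervals that cover counting error only, open triangles for 0 reads and a dashed line at 1 FPKM. ANXA1 and PTGES3 lie above 100 in every library, PTGS2 rises above 1 only in TNF-α replicate 1, and PTGES and HPGD rest on 16 reads or fewer in each library.

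To ask whether TNF-α changed these transcripts, log2(FPKM + 1) was compared between the groups with limma across 12136 genes. None of the 5 tested members passed the threshold of an adjusted p of 0.05, where 1.01% of all tested genes did (123 genes, 0.717% higher and 0.297% lower in TNF-α). None of the 5 had an unadjusted p under 0.05, against 24.2% of all tested genes, and none was among the 118 genes (0.709% of 16638) called by limma-voom on genes with 10 or more recovered reads in 3 libraries. On the reads of the same 12136 genes limma-voom called 0.931%, again with none of the 5. Both limma-voom fits used the library sizes held in the FPKM values, so they cannot check that scaling. The median log2 fold change of the 5 members was 0.28, beside 0.04 over all tested genes. The NC and TNF-α libraries overlapped for each of the 5, whereas they did not overlap for 30.1% of all tested genes.

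The 5 members nevertheless differed between libraries within the TNF-α group. Levels in FPKM carried the smaller library size of TNF-α replicates 2 and 3. On that scale PTGES2, PTGES3 and ANXA1 lay above the other 4 libraries in both, and PLA2G4A and PTGER4 lay below them. Such a separation was the rule in these data and held for 82.2% of all tested genes (43.7% above and 38.5% below). TNF-α replicate 1 lay outside the NC range for PTGES3, ANXA1 and PTGER4, as it did for 64.8% of all tested genes.

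PLA2G4A encodes cytosolic phospholipase A2, the enzyme that releases arachidonic acid, and lies at chr1:186828953-186988981 on the plus strand. Its FPKM was 2.01, 1.75 and 2.15 in NC replicates 1, 2 and 3, and 1.76, 0.872 and 1.10 in TNF-α replicates 1, 2 and 3. These values came from 65 to 209 reads. TNF-α replicate 1 lay inside the NC range, and TNF-α replicates 2 and 3 were the lowest of the 6. The log2 fold change, TNF-α minus NC on log2(FPKM + 1), was -0.42 (SE 0.18, 95% interval -0.85 to 0.0038, limma adjusted p = 0.195). This scale understates the change of a gene at such a low level, and limma-voom on recovered reads gave -0.69 (adjusted p = 0.193). Without TNF-α replicates 2 and 3 the value was -0.10 (adjusted p = 0.711), and without TNF-α replicate 1 it was -0.58 (adjusted p = 0.00175), a fit in which 79.4% of all genes passed. PLA2G4A had 39.0% GC, and its fitted GC and length part was 0.0030 and 0.05 in TNF-α replicates 2 and 3, beside observed ratios of -0.66 and -0.50. The corrected value was -0.45 (SE 0.17, adjusted p = 0.172).

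The 2 cyclooxygenases were near the lower end of detection. PTGS1, the constitutive enzyme at chr9:122370530-122395703 on the plus strand, was at 0.129, 0.163 and 0.151 FPKM in NC and 0.140, 0.120 and 0.156 in TNF-α, from 18 to 31 reads. The 95% counting intervals of all 6 libraries overlapped. PTGS1 took no side in any library, and its log2 fold change by limma-voom on reads was -0.08 (SE 0.32, adjusted p = 0.860).

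PTGS2, the inducible enzyme at chr1:186671791-186680427 on the minus strand, was at 0.704, 0.712 and 0.603 FPKM in NC, from 134, 123 and 102 reads. It was at 1.09, 0.190 and 0.266 FPKM in TNF-α, from 185, 26 and 34 reads. TNF-α replicate 1 was thus the highest of the 6 libraries and TNF-α replicates 2 and 3 the lowest. TNF-α replicate 1 was at 1.62 times the NC mean, and its counting interval of 0.941 to 1.26 FPKM lay above those of the NC libraries, of which the highest upper bound was 0.849. TNF-α replicates 2 and 3 averaged 0.339 times the NC mean, and their intervals, with a highest upper bound of 0.371, lay below the lowest NC bound of 0.491. The replicates of 1 treatment therefore fell on opposite sides of NC, a pattern seen in 27.3% of tested genes, and no group difference was detectable. An exact two-sided permutation test on log2(FPKM + 1) gave p = 0.4, where 3 against 3 libraries cannot go below 0.1. By limma-voom on reads the log2 fold change was -0.73 (SE 0.59, adjusted p = 0.377). PTGS2 had 39.4% GC, and tested genes under 40% GC had a median difference from NC of -0.53 in TNF-α replicates 2 and 3. On the same log2(FPKM + 1) scale, which understates change at low levels, PTGS2 was at -0.49 and -0.40 there. The part of GC content in its difference was not tested. The antisense transcript PACERR, which starts beside PTGS2 on the opposite strand, had 0 to 4 reads in NC and 2 to 10 in TNF-α, and no exon of another gene overlapped the exons of PTGS2 or of any other member.

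Within a library, the share of PTGS2 in the summed FPKM of PTGS1 and PTGS2 was 84.5%, 81.3% and 80.0% in NC and 88.7%, 61.4% and 62.9% in TNF-α. PTGS2 thus had the larger value in each library, and its share was highest in TNF-α replicate 1 and lowest in TNF-α replicates 2 and 3. In those last 2 libraries the 95% counting intervals of PTGS2 and PTGS1 overlapped. They were 0.124 to 0.279 and 0.0711 to 0.190 FPKM in TNF-α replicate 2, and 0.184 to 0.371 and 0.0980 to 0.237 FPKM in TNF-α replicate 3. The mean shares were 82.0 ± 2.31% and 71.0 ± 15.3% (SD, n = 3 each, exact two-sided permutation p = 0.4). The difference, -11.0 percentage points, became -19.8 with TNF-α replicate 1 left out, -6.15 with TNF-α replicate 2 left out and -6.95 with TNF-α replicate 3 left out.

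The 3 prostaglandin E synthases were unequal. PTGES, the inducible membrane enzyme at chr9:129738331-129753047 on the minus strand, had 9, 2 and 0 reads in NC and 2, 0 and 0 in TNF-α. At this depth 3 reads correspond to 0.0438 to 0.0652 FPKM for PTGES, so its level in 5 of the 6 libraries was at or under that limit and no direction could be read. PTGES made up 0.104% or less of the summed FPKM of the 3 synthases in every library.

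PTGES2, a membrane-associated synthase at chr9:128120693-128128462 on the minus strand, had the largest standard error of the 5 tested members. Its FPKM was 22.5, 20.4 and 25.2 in NC and 22.2, 66.4 and 53.3 in TNF-α, from 2035 to 5232 reads. TNF-α replicate 1 lay inside the NC range, and TNF-α replicates 2 and 3 averaged 2.64 times the NC mean. The log2 fold change was 0.90 (SE 0.40, 95% interval -0.07 to 1.86, limma adjusted p = 0.195). Without TNF-α replicates 2 and 3 it was -0.03 (adjusted p = 0.929), and without TNF-α replicate 1 it was 1.36 (adjusted p = 4.1e-05). PTGES2 had 63.9% GC over its transcripts, more than 95.5% of tested genes, and the part of its log2 ratio fitted from GC content and length was 1.09 and 0.91 in TNF-α replicates 2 and 3, beside observed ratios of 1.51 and 1.20. After correction for GC content and length the log2 fold change was 0.22 (SE 0.14, adjusted p = 0.268), in a fit in which 2.23% of genes passed. PTGES2-AS1, an antisense neighbour, had 0 to 6 reads per library.

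PTGES3, the cytosolic synthase that is also the p23 co-chaperone of HSP90, lies at chr12:56663341-56688408 on the minus strand. Its FPKM was 103, 111 and 101 in NC and 101, 150 and 144 in TNF-α. TNF-α replicate 1 was just below every NC library, and TNF-α replicates 2 and 3 were the highest in FPKM. Before scaling to library size, PTGES3 had 12692, 12351 and 11073 reads in NC and 11003, 13180 and 11872 in TNF-α. In reads TNF-α replicate 3 thus lay inside the NC range. That library also had the fewest reads in genes, 31992167 against 34204083 to 37897044 in NC. Unscaled reads therefore do not compare its level with NC. The log2 fold change was 0.30 (SE 0.20, 95% interval -0.19 to 0.78, limma adjusted p = 0.283), and it took the other sign at -0.20 under TPM scaling and -0.28 under quantile normalization, neither past the threshold. TPM scaling moved the median log2 fold change of all genes to -0.42. PTGES3 had 42.7% GC, and its fitted GC and length part was only 0.05 and 0.07 in TNF-α replicates 2 and 3, beside observed ratios of 0.51 and 0.45. Its corrected fold change was 0.26 (adjusted p = 0.262).

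As a share of the 3 synthases, PTGES2 made up 17.8%, 15.6% and 19.9% in NC and 18.0%, 30.7% and 27.0% in TNF-α. TNF-α replicates 2 and 3 were the highest and TNF-α replicate 1 lay inside the NC range. The difference of 7.50 percentage points did not separate the groups (exact two-sided permutation p = 0.2). With 1 library left out it ranged from 4.76 (TNF-α replicate 2) to 11.1 (TNF-α replicate 1), and PTGES3 was the major synthase transcript in each library.

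**Figure D2:**
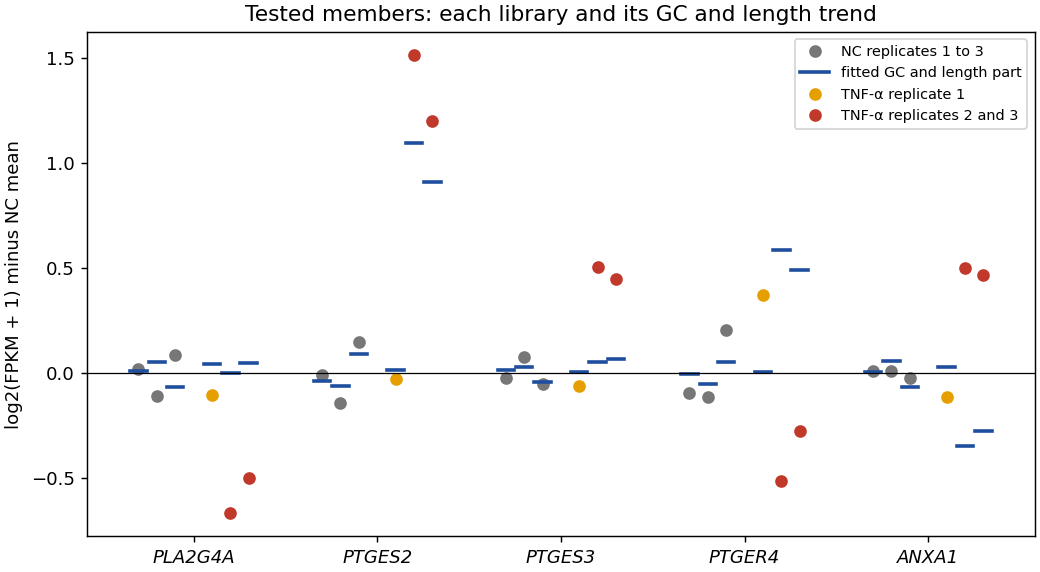
Difference of log2(FPKM + 1) from the NC mean in each library for the 5 tested members, with a blue bar for the part fitted from GC content and gene length. The bars of TNF-α replicates 2 and 3 lie on the side of the points for PTGES2, near 0 for PTGES3 and PLA2G4A, and on the other side for PTGER4 and ANXA1.

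The receptors were sparse. PTGER2, the EP2 receptor at chr14:52314305-52328606, had 0 reads in each of the 6 libraries, which allows a level of up to 0.0336 to 0.050 FPKM by the 3-read limit. PTGER4, the EP4 receptor at chr5:40679498-40693735 on the plus strand, was at 1.91, 1.88 and 2.59 FPKM in NC and 3.03, 1.18 and 1.57 in TNF-α, from 121 to 386 reads. As for PTGS2, TNF-α replicate 1 was the highest library and TNF-α replicates 2 and 3 were the lowest. The log2 fold change was -0.14 (SE 0.25, 95% interval -0.74 to 0.47, limma adjusted p = 0.673), and the sign depended on the libraries used. It was 0.37 (adjusted p = 0.236) without TNF-α replicates 2 and 3, -0.39 (adjusted p = 0.0274) without TNF-α replicate 1, 0.05 (adjusted p = 0.905) without TNF-α replicate 2, and 0.00 under quantile normalization. At 55.2% GC its fitted part was 0.58 and 0.49 in TNF-α replicates 2 and 3, opposite to the observed -0.51 and -0.28. After correction the value was -0.50 (SE 0.37, adjusted p = 0.337).

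PTGER4 was the major EP receptor transcript, with 94.2%, 88.9% and 95.6% of the summed FPKM of the 4 EP receptors in NC and 97.5%, 77.7% and 87.3% in TNF-α. The groups overlapped (exact two-sided permutation p = 0.6). The difference of -5.42 percentage points shrank to -0.52 when TNF-α replicate 2 was left out and grew to -10.4 when TNF-α replicate 1 was. The other receptors that carried reads, PTGER1 and PTGER3, stayed at 0.299 FPKM or less.

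HPGD, the dehydrogenase that inactivates prostaglandins, lies at chr4:174490177-174523154 on the minus strand. It had 9, 6 and 4 reads in NC and 8, 16 and 2 in TNF-α, or 0.0149 to 0.112 FPKM. TNF-α replicates 2 and 3 held the highest and the lowest value, and the groups overlapped (exact two-sided permutation p = 0.7).

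ANXA1 encodes annexin A1, a calcium-dependent phospholipid-binding protein, at chr9:73151757-73170393 on the plus strand. Its FPKM was 132, 132 and 129 in NC and 121, 185 and 181 in TNF-α, from 17747 to 21914 reads. TNF-α replicate 1 was below every NC library while TNF-α replicates 2 and 3 averaged 1.40 times the NC mean in FPKM. Before scaling to library size, ANXA1 had 21736, 19753 and 18860 reads in NC and 17747, 21914 and 20059 in TNF-α. In reads TNF-α replicate 3 thus lay inside the NC range. That library also had the fewest reads in genes, 31992167 against 34204083 to 37897044 in NC. Unscaled reads therefore do not compare its level with NC. The log2 fold change was 0.28 (SE 0.21, 95% interval -0.23 to 0.80, limma adjusted p = 0.321), and it turned to -0.22 under TPM scaling and -0.33 under quantile normalization. It was -0.11 without TNF-α replicates 2 and 3 (adjusted p = 0.412) and 0.48 without TNF-α replicate 1 (adjusted p = 0.000419). ANXA1 had 39.5% GC, and its fitted part of -0.34 and -0.27 in TNF-α replicates 2 and 3 was opposite to the observed 0.50 and 0.47. The corrected value was 0.48 (SE 0.27, adjusted p = 0.229).

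**Figure D3:**
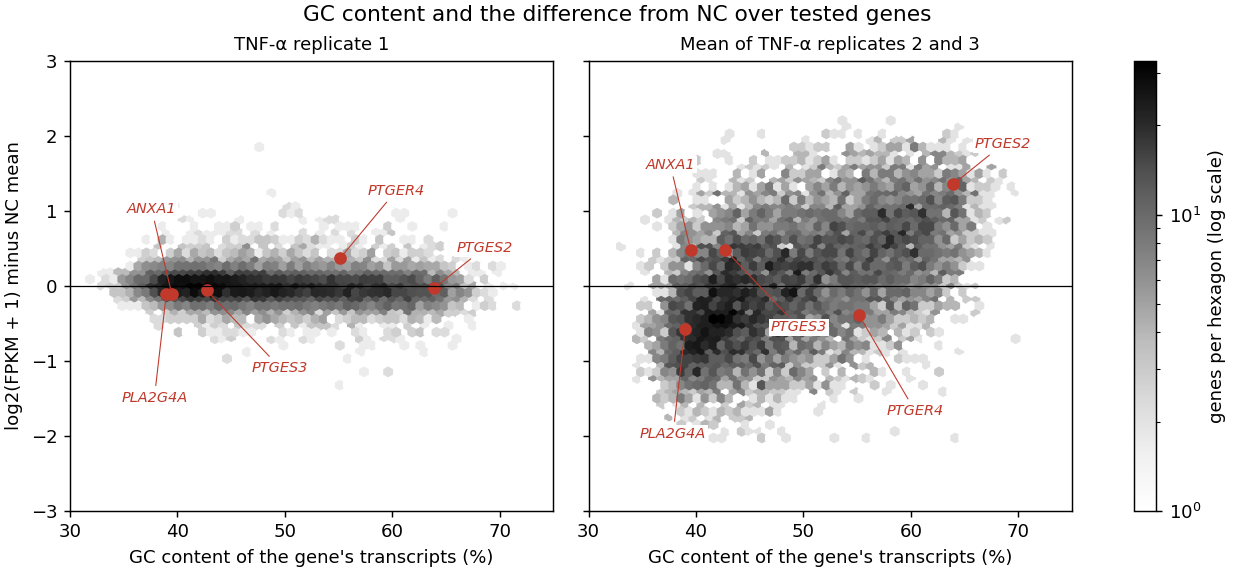
Difference of log2(FPKM + 1) from the NC mean against GC content for the tested genes, with the 5 members marked, in TNF-α replicate 1 (left) and as the mean of TNF-α replicates 2 and 3 (right). On the right the median difference runs from -0.53 for genes under 40% GC to 0.77 for genes of 60% or more, while on the left it stays between -0.04 and 0.02.

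The members did not share 1 relation to GC content. Over 6 bands of GC content the median difference from NC in TNF-α replicates 2 and 3 rose from -0.53 in the 1365 genes under 40% GC to 0.77 in the 1651 genes of 60% GC or more. PTGES2 in the highest band and PLA2G4A in the lowest had the sign of their band, although for PLA2G4A the part fitted from GC content and length together was near 0. ANXA1 and PTGES3, under 45% GC, lay above a band median of -0.53 and -0.31, and PTGER4, in the band from 55% to 60%, lay below a median of 0.53. The part of GC content in each difference was not tested beyond the correction given for that gene.

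Without TNF-α replicate 1, all 5 tested members passed the threshold, in a fit in which 79.4% of tested genes passed. Without TNF-α replicates 2 and 3 none did, where 6.03% of tested genes passed, and the lone TNF-α library was then assumed to vary like the NC libraries. With the GC and length correction none did, against 2.23% of genes.

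**Figure D4:**
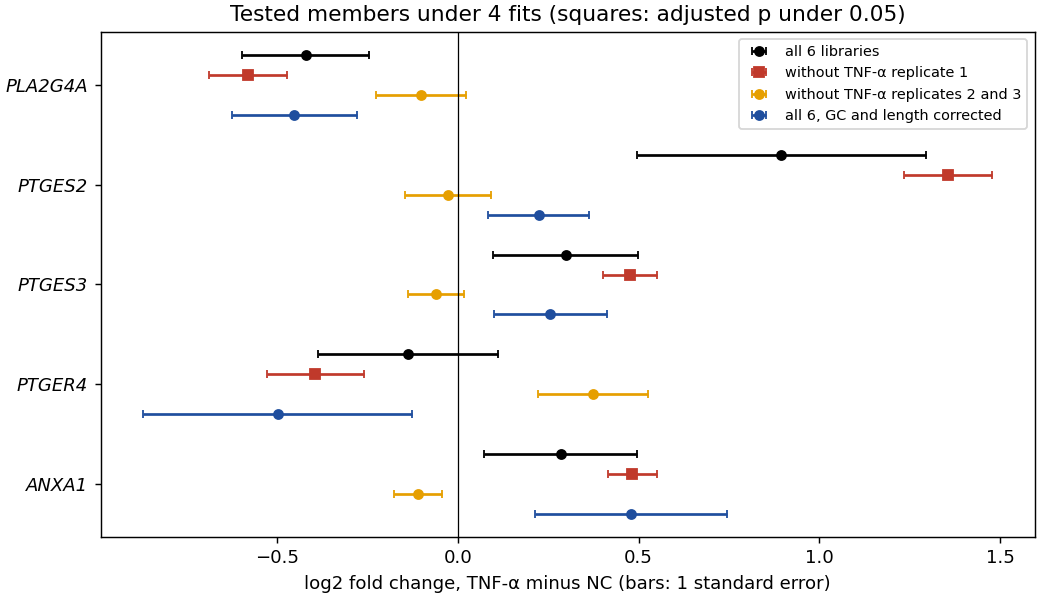
Log2 fold change (TNF-α minus NC, bars of 1 standard error) of the 5 tested members with all 6 libraries, with TNF-α replicate 1 left out, with TNF-α replicates 2 and 3 left out, and with all 6 after GC and length correction, with squares for an adjusted p under 0.05. The squares belong to the fit that leaves out TNF-α replicate 1. For PTGES2, PTGES3, PTGER4 and ANXA1 that fit and the fit that leaves out the other 2 TNF-α libraries lie on opposite sides of 0.

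To place the members in the wider pathway, 85 further genes in 8 lists were read in the same fit. Of these, 48 were tested and none passed the limma threshold. At an unadjusted p under 0.05 there were 12, beside the 24.2% of all tested genes, and 16 of the 48 had groups that did not overlap, beside 30.1%. TNF-α replicates 2 and 3 lay beyond the other 4 libraries for 39 of the 48, beside 82.2%. The lists thus stood close to all tested genes on each count.

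In the list for arachidonate release, 8 of 15 genes were tested, with a median log2 fold change of -0.17. The list also holds genes that bind arachidonate again, such as ACSL4 and MBOAT7, so the median does not describe release alone. ACSL4, which couples arachidonate to coenzyme A, was at 36.8, 37.6 and 34.1 FPKM in NC and 41.9, 14.4 and 15.3 in TNF-α (log2 fold change -0.75, limma adjusted p = 0.212), so it also lay on both sides of NC. MBOAT7, which returns arachidonate to phosphatidylinositol, was at 83.1 to 91.1 in NC and 79.9, 124 and 114 in TNF-α (0.24, adjusted p = 0.379). ABHD12 had a log2 fold change of 0.56 (adjusted p = 0.238) and PLAA of -0.08 (adjusted p = 0.679).

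Of the other prostanoid synthases, 6 of 11 were tested, with a median of 0.52. AKR1B1, an aldose reductase that also makes prostaglandin F2α, was the 1 whose groups did not overlap, at 65.5, 61.7 and 64.6 FPKM in NC and 82.3, 211 and 182 in TNF-α. Its log2 fold change was 1.19 (SE 0.36, limma adjusted p = 0.195), and it passed without TNF-α replicates 2 and 3 (0.36, adjusted p = 0.0428). CBR1 was at 0.50 (adjusted p = 0.261), GSTM3 at 0.53 (adjusted p = 0.228) and PRXL2B at -0.05 (adjusted p = 0.760) on the same log2 scale. Of the other prostanoid receptors 2 of 7 were tested, with the thromboxane receptor TBXA2R at 0.17 (adjusted p = 0.573) and the prostaglandin F receptor PTGFR at -0.22 (adjusted p = 0.402).

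In transport and breakdown 5 of 7 genes were tested, with a median of -0.14. PTGR1, a prostaglandin reductase, had a log2 fold change of 0.42 (limma adjusted p = 0.270), the transporter SLCO3A1 -0.11 (adjusted p = 0.478), the exporter ABCC4 -0.52 (adjusted p = 0.195) and CBR4 -0.14 (adjusted p = 0.400). Groups did not overlap for 3 of the 5, beside 30.1% of all tested genes. For ABCC4 and CBR4, which were among them, every TNF-α library was below every NC library by a margin within counting error. The nearest values were 3.78 FPKM in TNF-α replicate 1 and 3.86 in NC replicate 3 for ABCC4. For CBR4 they were 3.254 in TNF-α replicate 2 and 3.258 in NC replicate 2. In the lipoxygenase list 3 of 13 genes were tested, with LTA4H, the leukotriene A4 hydrolase, at 0.02 (adjusted p = 0.887), the leukotriene B4 receptor LTB4R at 0.49 (adjusted p = 0.195) and ALOX12 at -0.12 (adjusted p = 0.510).

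The annexin list, which holds the S100 partners of annexins and the annexin A1 receptors, had 10 of 16 genes tested and a median of 0.40, and 5 of the 10 had groups that did not overlap, beside 30.1% of all tested genes. S100A11, a partner of ANXA1, was at 354, 350 and 375 FPKM in NC and 455, 1425 and 1190 in TNF-α (log2 fold change 1.35, SE 0.44, limma adjusted p = 0.195). With TNF-α replicate 1 alone it passed at 0.34 (adjusted p = 0.0428). S100A10, the partner of ANXA2, was at 105, 110 and 106 in NC and 123, 342 and 298 in TNF-α (1.11, adjusted p = 0.195). Each of the 3 TNF-α libraries was above NC for both, with TNF-α replicates 2 and 3 far above TNF-α replicate 1. ANXA2 was at 0.68 (adjusted p = 0.197) and ANXA5 at 0.33 (adjusted p = 0.197) on the log2 scale.

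Of the transcription factors and messenger-binding proteins of PTGS2, 10 of 11 were tested, with a median of 0.42. In TNF-α replicate 1, 8 of the 10 lay above every NC library, beside 30.5% of all tested genes. Groups did not overlap for 5 of the 10, beside 30.1%. CEBPB was at 26.0, 25.8 and 26.5 FPKM in NC and 43.5, 77.6 and 72.7 in TNF-α (log2 fold change 1.23, SE 0.24, limma adjusted p = 0.102). RELA, the p65 subunit of NF-κB, was at 22.6, 23.7 and 25.5 in NC and 30.3, 46.5 and 43.7 in TNF-α (0.70, adjusted p = 0.194). JUN was at 85.4, 84.5 and 100.1 in NC and 140, 123 and 131 in TNF-α (0.54, adjusted p = 0.195). For these 3 factors every TNF-α library exceeded every NC library, although none passed the threshold. With TNF-α replicate 1 as the lone treated library, CEBPB (0.71, limma adjusted p = 0.00362) and JUN (0.64, adjusted p = 0.0249) passed while RELA did not. On the same scale the messenger stabilizer ELAVL1 was at 0.00 (adjusted p = 0.984).

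In the glucocorticoid list 4 of 5 genes were tested, with a median of -0.15. DUSP1, a MAP kinase phosphatase, was at 14.5, 14.8 and 16.0 FPKM in NC and 23.4, 24.2 and 25.4 in TNF-α. The 3 TNF-α libraries lay close together here, and the log2 fold change was 0.66 (SE 0.12, limma adjusted p = 0.0900). It passed with TNF-α replicate 1 as the lone treated library (0.61, adjusted p = 0.0131). The glucocorticoid receptor NR3C1 was at 14.3, 14.3 and 13.5 in NC and 13.7, 4.80 and 5.39 in TNF-α (-0.88, adjusted p = 0.195), and FKBP5 (-0.55, adjusted p = 0.195) and TSC22D3 (0.26, adjusted p = 0.294) likewise differed mainly in TNF-α replicates 2 and 3.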

How the data were processed

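Poly(A) RNA libraries of 3 NC and 3 TNF-α cultures were sequenced, and the labels describe the cultures of a group as independent. The authors deposited FPKM values per gene; their processing notes name HISAT2 2.0.5 and featureCounts 1.5.0, with no statement of strand. All 58735 genes had the coordinates and exonic lengths of GENCODE 29. A further 6 per-sample columns were not used. FPKM multiplied by the deposited gene length gave whole reads for 100% of values (tolerance 0.01), with 31992167 to 37897044 reads per library. Intervals and the 3-read limit cover counting error only.

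Genes that reached 1 FPKM in 3 or more of 6 libraries were compared on log2(FPKM + 1) with limma 3.58.1 (R 4.3.3, empirical Bayes with trend), with Benjamini-Hochberg adjustment over all 12136 genes and a threshold of 0.05. Limma-voom was run on the recovered reads with the library sizes held in the FPKM values, also at a minimum of 10 reads in 3 libraries. GC content came from GENCODE 29 transcripts, and its trend with length was fitted per library for 12131 genes. Only the limma fit on log2(FPKM + 1) was tried on simulated data. Those data held no GC trend and no treated library set apart, so they do not show how the fits behave here. The members and lists were chosen with earlier results of these data known. All 10 members are named, and of each list the genes past the threshold by size of change (at most 5), then those of highest mean FPKM up to 4. Genes most like PTGS2 or PTGES across libraries were not sought, since neither reached the level needed for testing. Alternatives covered the pseudocount, filter, scaling, variance model, replicate block and left-out libraries.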

Additional observations from a re-analysis of the deposited data

How the results depend on the processing

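With 3 libraries a group, of which 2 treated libraries stood apart, 4 of the 5 tested members took the other sign in at least 1 alternative. None of the 5 passed the test in any alternative except without TNF-α replicate 1, where all 5 did. PLA2G4A kept its direction in all 19 of its alternatives, between -0.98 and -0.10. PTGES3 and ANXA1 turned to -0.20 and -0.22 under TPM scaling and to -0.28 and -0.33 under quantile normalization, where PTGER4 came to 0.00044. Leaving out 1 library at a time, PTGER4 ranged from -0.39 to 0.050, positive without TNF-α replicate 2. In a fit chosen after seeing the data, without TNF-α replicates 2 and 3, PTGES2 was -0.028, PTGES3 -0.061, PTGER4 0.37 and ANXA1 -0.11.

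Across all genes 123 passed, against 58 with no filter, 79 with a filter of 5 FPKM, 58 under TPM, 185 under quantile normalization, 270 with the GC and length correction and 732 without TNF-α replicates 2 and 3. Leaving out 1 library at a time the count ran from 10 without NC replicate 2 to 9630 without TNF-α replicate 1 (17 and 13 without NC replicates 1 and 3, 42 and 20 without TNF-α replicates 2 and 3 singly), that of members from 0 to 5, and that of pathway list genes from 0 to 38, the highest each time without TNF-α replicate 1. Pathway list genes numbered 0 in the main comparison, 2 under quantile normalization (CEBPB and ANXA8), 1 by limma-voom with either minimum (ANXA8), 1 with the GC and length correction (NFKB1) and 7 without TNF-α replicates 2 and 3. Beyond fewer samples or genes, the cause was not tested. Same-numbered libraries showed little shared deviation (correlations of -0.0144, -0.178 and 0.124 for numbers 1 to 3). With 3 libraries a group and TNF-α replicates 2 and 3 set apart, these values cannot exclude a pairing by number. The replicate block gave 24 genes with no member among them. PTGS1, PTGS2, PTGES and HPGD were limited by reads, and PTGER2 by its 0 reads. The minimum of 10 reads and the PTGES2 share were also chosen after seeing the data.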

Other observations

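Among the 37 pathway list genes under the level needed for testing, 7 had groups that did not overlap, beside 30.1% of tested genes. The share over all genes under that level was not computed, so the count is not a result about these lists. They were singled out after their values were seen. PLA2G4C, a membrane-bound relative of cytosolic phospholipase A2, was at 0.159, 0.0968 and 0.0989 FPKM in NC and 0.329, 0.362 and 0.374 in TNF-α. The 3 TNF-α libraries lay close together, at a mean of 0.355 ± 0.0229 against 0.118 ± 0.0353 (SD, n = 3 each), and limma-voom on recovered reads gave a log2 fold change of 1.59 (SE 0.30, adjusted p = 0.0946). FPR1, a formyl peptide receptor that binds annexin A1 peptides, was at 0.235, 0.282 and 0.264 FPKM in NC and 0.408, 0.684 and 0.572 in TNF-α (1.03, SE 0.34, limma-voom adjusted p = 0.199). In FPKM, ALOXE3 and ANXA3 were also higher and LTB4R2, SLCO2A1 and PLA2G4B lower in each TNF-α library, none past the threshold where it could be tested. Reads were few, at 3 to 22 for ALOXE3, 5 to 19 for ANXA3 and 0 to 8 for PLA2G4B. ANXA3 had 9 reads in TNF-α replicate 2, fewer than the 12 and 10 of NC replicates 1 and 2. Its FPKM there was 0.0678, beside 0.0648 and 0.0595 in those NC libraries.

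ANXA8, an annexin with a near-identical copy whose reads may be split by the counting, was at 0.419, 0.314 and 0.415 FPKM in NC and 1.11, 1.15 and 1.60 in TNF-α. Its log2 fold change was 0.72 (SE 0.13, limma adjusted p = 0.0913) on log2(FPKM + 1) and 1.73 (SE 0.26, adjusted p = 0.0475) by limma-voom on recovered reads. NFKB1, the p50 subunit of NF-κB, was at 9.04, 8.33 and 9.77 FPKM in NC and 18.9, 14.1 and 14.6 in TNF-α (0.74, SE 0.16, limma adjusted p = 0.121), and after correction for GC content and length it passed (0.79, limma adjusted p = 0.0269). GFAP, the astrocyte filament protein among the U251 markers, passed in the main comparison and fell by 1.54 on the log2 scale (SE 0.18, limma adjusted p = 0.0210), from 8.16, 7.10 and 9.47 FPKM to 1.58, 2.60 and 2.39, with all 3 TNF-α libraries below NC.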
